A study of Mus musculus with 13 samples.

Results

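The genes described here are 33 genes of the hypoxia response and of glycolysis, followed through 13 mouse embryos. They were chosen by name, a gene being taken where its symbol stood in the deposited table of 23217 genes, and all 33 were found. Each embryo gave 1 RNA library; all were of embryonic day 9.5, and their strain background is C57BL/6J. The genotype label reads xHet for 3 embryos and xHomo for 10, and the labels spell out neither name. The study asked what Tet1, a dioxygenase acting on methylated cytosine, does when parental imprints are removed. From what is known of the study, these embryos were sired by males that carried a Tet1 mutation, which the labels do not say. The allele, the dams, the litters and the sex of the embryos are not in the labels, and nothing in them says which embryos share a litter, so p-values reflect the spread of these 13 embryos and nothing wider. Levels are given as FPKM, the fragments of a transcript divided by its length in kilobases and by the number mapped in the library, and so can be compared between genes.

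Cells short of oxygen are known to respond through the hypoxia-inducible factors, HIF. In oxygen, prolyl hydroxylases of the Egln family mark the alpha subunits of HIF for destruction through the Vhl protein. When oxygen is low the subunits persist, pair with Arnt and bind DNA at a core motif, ACGTG or GCGTG, near genes for glucose uptake, glycolysis, vessel growth and the turnover of mitochondria. The mammalian embryo at mid-gestation is known to live in low oxygen and to draw much of its energy from glycolysis.

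Summed FPKM ran from 500126 to 662936 over the 13 libraries, at a read depth that the table does not show. Tet1, the gene the study is named for, was at 1.93 to 2.61 FPKM in the xHet embryos and 1.11 to 2.87 FPKM in the xHomo embryos, and these ranges overlap. Markers of the tissues that a whole embryo of this stage holds were present in every library, with a summed level of 562 to 1033 FPKM for 9 heart muscle genes, 128 to 230.1 FPKM for 10 neural genes and 5196 to 15330 FPKM for 16 red cell genes. Of 12 trophoblast markers Tpbpa, Psg18 and Ctsq were at 0 in all libraries, as was Prl3c1 of 7 markers of the maternal decidua. Others were present: 3 of the 12 averaged 1 FPKM or more, namely Prl3b1, Plac1 and Hand1. So did 5 of the 7, Dcn, Wnt4, Bmp2, Alpl and Cryab. Whether the RNA of these genes came from the embryo or from adhering tissue was not tested. The summed level was 16.7 to 26.8 FPKM for the trophoblast list and 24.0 to 36.8 FPKM for the decidua list. The library of xHomo embryo 3 stood apart: 32.2% of the 12755 genes averaging 1 FPKM or more were lower in it than the xHet mean by the measure defined next, and it was the lowest of the 13 for 52.9% of them.

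xHomo embryos 7, 8, 9 and 10 had higher levels of nearly every gene of the set, among them glucose transporters, glycolytic enzymes and the mitochondrial and secreted hypoxia genes. A gene was counted as higher in an embryo where its log2(FPKM+1) lay at least 0.5 above the mean of the xHet embryos, or of the other 2 for a xHet embryo, and as lower where it lay as far below. Of the 33 genes 32 averaged 1 FPKM or more over the embryos and were counted and tested; Car9 did not. In xHomo embryos 7, 8, 9 and 10, 30, 31, 30 and 31 of the 32 were higher, against 6.69%, 9.32%, 15.2% and 4.27% of all genes tested in the same embryos. xHomo embryo 1 came next, with 18 of 32 higher against 3.0% of all genes. In xHomo embryos 2, 3, 4, 5 and 6 the counts were 0, 1, 1, 1 and 0, against 1.62%, 3.1%, 4.59%, 5.95% and 4.17% of all genes. Among the xHet embryos the counts were 0, 0 and 6, against 1.58%, 0.902% and 1.14%, so that xHet embryo 3 was the highest of its group. The embryos of the xHomo label thus did not form a single level of these genes.

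**Figure D1:**
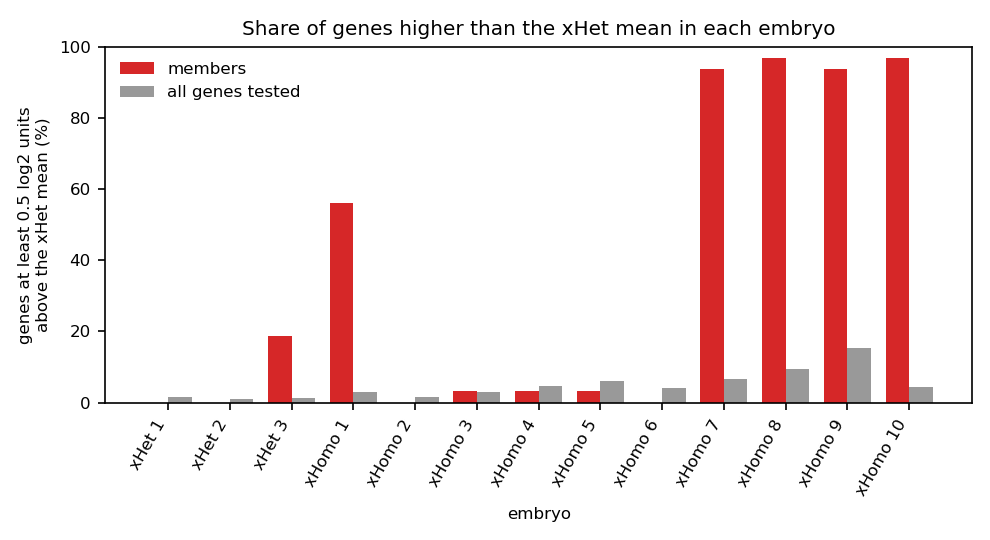
Bars give the percentage of genes at least 0.5 log2 units above the xHet mean in each of the 13 embryos, red for the 32 tested genes of the set and grey for all 12755 genes tested. In xHomo embryos 7 to 10 the red bars stand at 30 or 31 of 32 genes while the highest grey bar is 15.2%.

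The median difference of the 32 genes from the xHet mean was 1.10, 1.29, 1.52 and 0.92 log2 units in xHomo embryos 7, 8, 9 and 10, where the median over all genes lay between 0.06 and 0.10. It was 0.52 in xHomo embryo 1 and ran from -0.33 to 0.11 in xHomo embryos 2 to 6. Among the xHet embryos it was -0.05, -0.24 and 0.28, each against the mean of the other 2. A difference of at least 1 log2 unit was reached by 20, 25, 27 and 13 genes in xHomo embryos 7 to 10, against 1.11%, 1.37%, 3.03% and 1.02% of all genes. It was reached by 2 genes in xHomo embryo 1, 1 in xHomo embryo 3 (Eno1) and 1 in xHet embryo 3, against 0.996%, 0.47% and 0.455% of all genes. In xHomo embryo 3, 6 genes were lower by at least 1 log2 unit, as were 9.71% of all genes. Pfkfb4 was the only gene of the 32 below 0.5 in all of xHomo embryos 7 to 10; Hk1 did not reach it in xHomo embryo 7, at 0.47, and Eno1 in xHomo embryo 9, at 0.39.

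**Figure D2:**
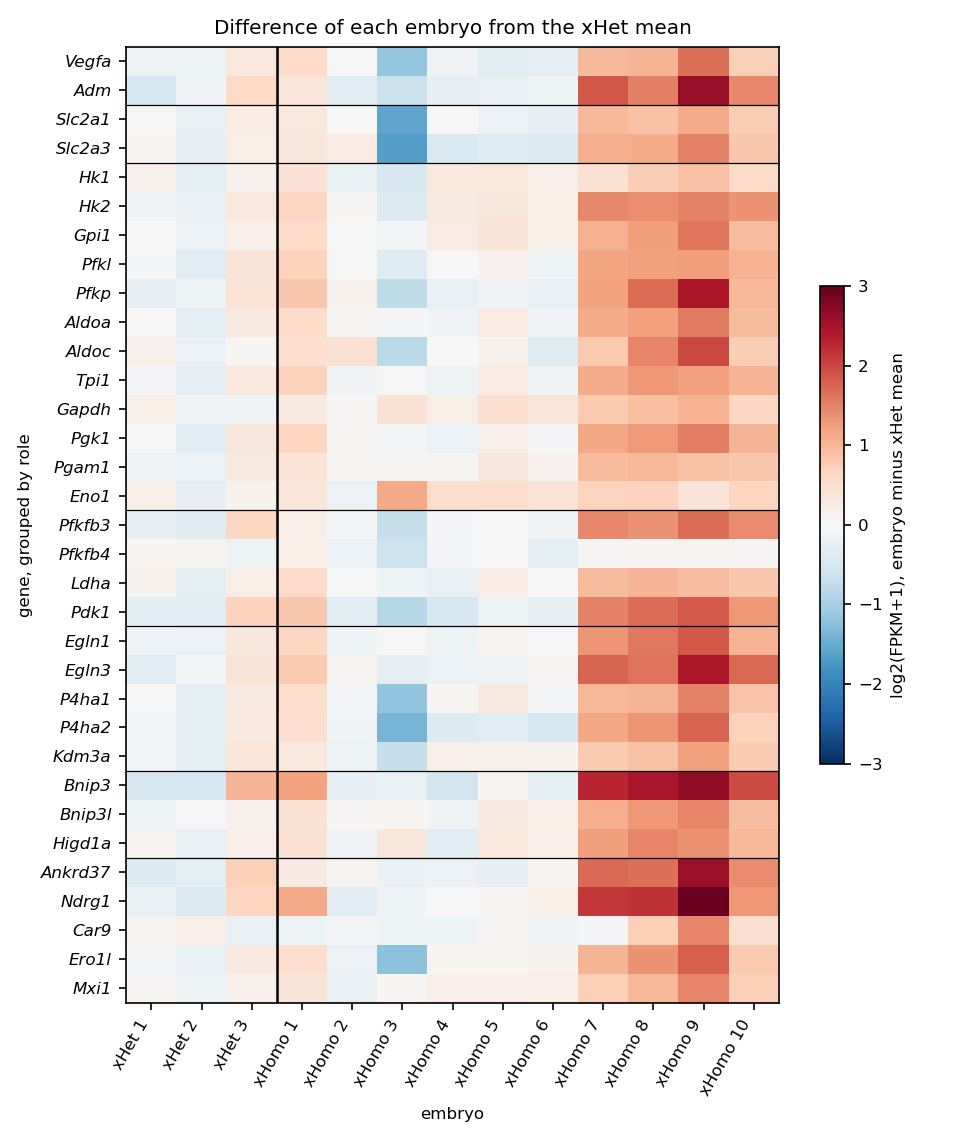
Each square is the difference of log2(FPKM+1) of a gene in an embryo from the mean of the 3 xHet embryos (for a xHet embryo, of the other 2), red where higher and blue where lower, with genes grouped by role and Car9, which was not tested, included. The columns of xHomo embryos 7 to 10 are red apart from Pfkfb4, near 0 in all 4, and Car9, near 0 in xHomo embryo 7; xHomo embryo 3 has the darkest blue squares, with 13 tested genes lower by at least 0.5 log2 units.

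Ranked over all 13 embryos, xHomo embryos 7, 8, 9 and 10 were the 4 highest for 30 of the 32 genes, a pattern counted after the values were seen, which 6.35% of all genes tested also showed. Under 4 rescalings of the libraries the share of all genes was lower, at 1.91% to 3.21%, and the count of the set was 28 or 29. Eno1 and Pfkfb4 were the exceptions. In 26 of the 30 xHomo embryo 1 was the fifth. The single highest value belonged to xHomo embryo 9 for 26 of the 32, against 23.1% of all genes, and to xHomo embryo 8 for 4, against 8.4%: Ldha, Tpi1, Pgam1 and Higd1a. xHomo embryos 8 and 9 also had the highest summed FPKM of the 13, 662936 and 654212, and the part of library composition in the order of the embryos was not tested beyond the rescalings given in the closing section. Whether these genes were higher in all cells or in some, and whether cells differed in number or in RNA content, cannot be told apart in RNA from whole embryos.

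The promoters of the set were also read for the HIF core motif. The genes were chosen by name for the hypoxia response and glycolysis, near whose genes HIF is known to bind. A high share with the motif thus follows from that choice and says nothing of these embryos. Of the 33 genes 30 had an entry in the RefSeq promoter table of build GRCm38.p6, Ero1l under the symbol Ero1a; Slc2a3, Bnip3l and Ndrg1 had none. In the 300 bases from 250 before to 50 after a start, the motif ACGTG or GCGTG, searched on both strands and so also as CACGT or CACGC, stood at 1 or more starts of 28 of the 30 genes (93.3%) and of 46.7% of the 27025 genes in the table. Counted by start, it was in 35 of 44 promoters (79.5%), against 43.8% of 32851. The shares set beside the genes are of all genes with a promoter entry and were not limited to those tested here. The median GC content was 63.2% in the promoters of the set and 52.7% in the table, and the part of base composition in the difference of shares was not tested. Gpi1 and Tpi1 had no match in this window. The 250 bases before the start are shown for 4 of the genes whose levels differed most among xHomo embryos, Bnip3 at chr7:138909507-138909756 on the minus strand, Adm at chr7:110627407-110627656 on the plus strand, Pdk1 at chr2:71872974-71873223 on the plus strand (the first of its 2 entries) and Ankrd37 at chr8:45999851-46000100 on the minus strand, and for Pfkfb4 at chr9:108991652-108991901 on the plus strand, which did not follow the others. They are written 5′ to 3′ toward the start, from RefSeq on GRCm38.p6, and capitals mark matches to the motif on either strand; where ACGTG and CACGT overlap they run on as CACGTG.
Bnip3: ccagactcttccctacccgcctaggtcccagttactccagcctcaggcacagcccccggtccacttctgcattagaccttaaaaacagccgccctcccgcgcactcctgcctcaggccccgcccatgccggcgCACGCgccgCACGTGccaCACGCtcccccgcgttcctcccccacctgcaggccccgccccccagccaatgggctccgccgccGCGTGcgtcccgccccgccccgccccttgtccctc
Adm: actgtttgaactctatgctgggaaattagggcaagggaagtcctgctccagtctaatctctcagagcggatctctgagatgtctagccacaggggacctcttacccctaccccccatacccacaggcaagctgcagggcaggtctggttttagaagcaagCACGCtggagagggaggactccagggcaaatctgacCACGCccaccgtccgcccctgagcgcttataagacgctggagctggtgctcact
Pdk1: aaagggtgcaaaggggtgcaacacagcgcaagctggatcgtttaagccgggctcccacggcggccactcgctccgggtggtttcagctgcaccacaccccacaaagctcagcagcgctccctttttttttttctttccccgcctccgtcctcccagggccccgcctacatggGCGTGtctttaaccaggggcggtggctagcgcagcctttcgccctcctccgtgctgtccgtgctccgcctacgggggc
Ankrd37: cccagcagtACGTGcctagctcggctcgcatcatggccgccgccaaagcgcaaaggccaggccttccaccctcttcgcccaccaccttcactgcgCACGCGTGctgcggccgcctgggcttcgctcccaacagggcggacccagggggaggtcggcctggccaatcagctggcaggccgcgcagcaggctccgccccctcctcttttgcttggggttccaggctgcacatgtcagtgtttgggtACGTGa
Pfkfb4: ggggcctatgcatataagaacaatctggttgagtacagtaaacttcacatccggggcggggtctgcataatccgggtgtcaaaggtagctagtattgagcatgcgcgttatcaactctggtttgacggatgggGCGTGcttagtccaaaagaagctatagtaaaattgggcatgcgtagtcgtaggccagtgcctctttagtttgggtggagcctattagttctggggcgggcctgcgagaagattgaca
The Bnip3 stretch holds 4 separate matches, Ankrd37 3, Adm 2, and Pdk1 and Pfkfb4 1 each. A match is a description of the letters, and Pfkfb4, with a match, stood at the xHet level in the embryos where Bnip3 was at its highest.

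The genes are taken below by role, with loci on mm9 as the deposited table gives them. The secreted signals were Vegfa and Adm. Vegfa (chr17:46153942-46169326), the growth factor that drives vessel formation, was at 26.6, 26.5 and 33.5 FPKM in the 3 xHet embryos in order. Its level in the xHomo embryos, also in order, was 43.4, 28.8, 12.2, 26.6, 23.0, 23.3, 57.0, 59.2, 91.9 and 47.9 FPKM. The highest 4 were xHomo embryos 7 to 10, 1.98, 2.05, 3.18 and 1.66 times the xHet mean in that order, and xHomo embryo 3 was the lowest of all, so the groups overlapped. Adm (chr7:117771182-117773333), the precursor of the vasodilator peptide adrenomedullin, was a low gene, at 1.81, 2.44 and 3.73 FPKM in the xHet embryos and 3.63, 1.82, 1.25, 2.03, 2.07, 2.22, 12.1, 9.24, 20.9 and 8.71 FPKM in the xHomo embryos in order. Its values in xHomo embryos 7 to 10 were 4.55, 3.47, 7.86 and 3.27 times the xHet mean, which was 2.66 ± 0.979 FPKM (SD, n = 3). xHomo embryo 1 lay inside the xHet range for Adm but above it for Vegfa.

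**Figure D3:**
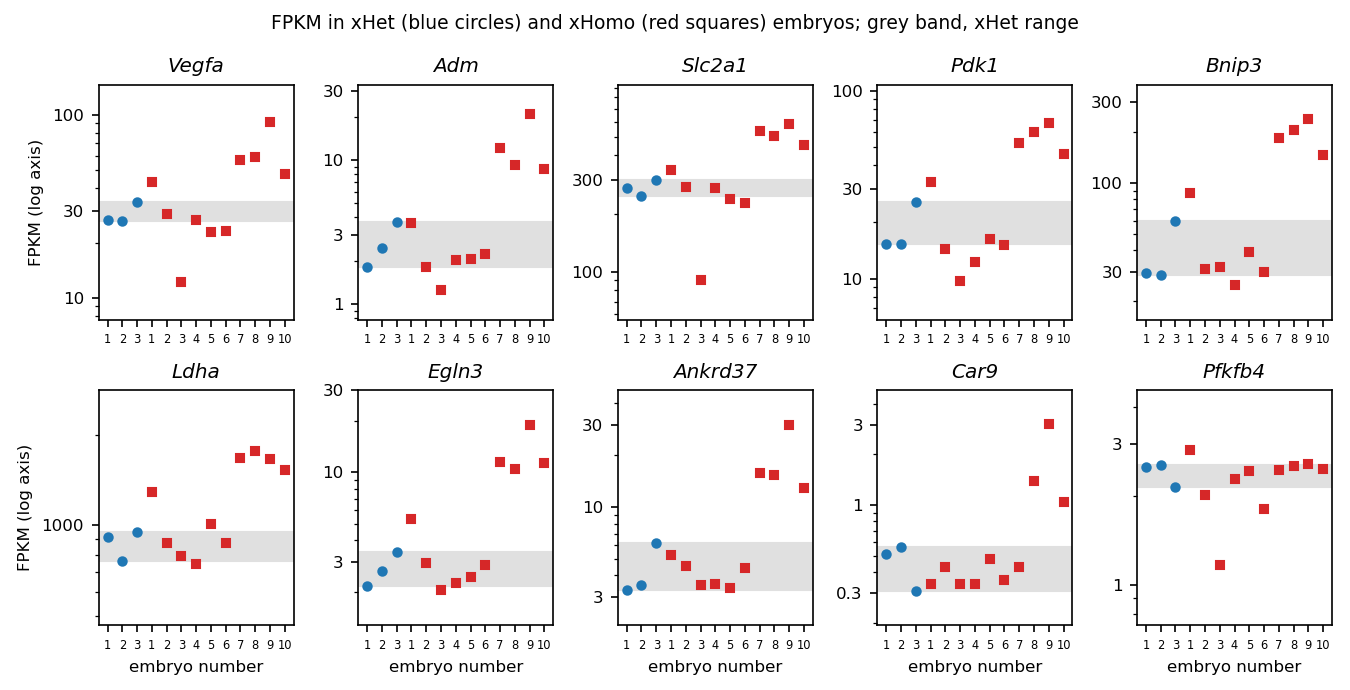
FPKM of 10 genes of the set in each embryo on log axes whose ranges differ between panels, blue circles for xHet embryos 1 to 3 and red squares for xHomo embryos 1 to 10, with a grey band over the xHet range. xHomo embryos 7 to 10 stand above the band for each gene shown except Pfkfb4 and, in xHomo embryo 7, Car9.

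Both glucose transporters were abundant. Slc2a1 (chr4:118781349-118809934), the widely expressed glucose transporter, was at 270.3, 245 and 299.6 FPKM in the xHet embryos. The 10 xHomo values were 338, 273, 90.4, 270.3, 239, 227, 535, 502, 583 and 452 FPKM. xHomo embryo 3 was far below every other embryo, at 0.333 times the xHet mean, while xHomo embryos 7 to 10 were at 1.97, 1.85, 2.15 and 1.66 times. Slc2a3, the high-affinity transporter, ran from 37.5 FPKM in xHomo embryo 3 to 339.6 FPKM in xHomo embryo 9, around a xHet mean of 120.1 ± 12.9 FPKM (SD, n = 3). Slc2a3 was below the lowest xHet embryo in xHomo embryos 3, 4, 5 and 6 and above the highest in the other 6.

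Some genes for enzymes of the glycolytic chain lie outside the set and are counted further below. The set holds 12 genes for enzymes of the chain from hexokinase to enolase, and all 12 were measured. In xHomo embryos 7, 8, 9 and 10, 11, 12, 11 and 12 of them were at least 0.5 log2 units above the xHet mean, with medians of 1.09, 1.24, 1.36 and 0.94. Hk2 (chr6:82675020-82724448), the inducible hexokinase that traps glucose in the cell, was at 16.6, 15.8 and 20.5 FPKM in the xHet embryos and at 27.9, 18.1, 12.9, 21.1, 22.5, 20.2, 49.2, 47.8, 50.7 and 46.2 FPKM in the xHomo embryos in order. The last 4 values lay close together, at 2.79, 2.71, 2.88 and 2.63 times the xHet mean. Hk1, the constitutive hexokinase, differed less, at 1.42, 1.74, 1.93 and 1.53 times in the same embryos; its locus in the table overlaps that of 2210417K05Rik, so its value is uncertain.

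Gpi1 (chr7:34986345-35015324), which isomerizes the sugar phosphate made by hexokinase, was at 134, 123 and 143 FPKM in the xHet embryos. Its xHomo values were 199, 132, 129, 159, 175, 149.7, 279, 316, 409 and 253 FPKM, of which 8 exceeded the highest xHet embryo and none lay below the lowest. The 2 phosphofructokinases of the set, which catalyse the committed step, differed in spread. Pfkl, the liver-type subunit, was at 2.25, 2.35, 2.37 and 2.05 times the xHet mean in xHomo embryos 7 to 10, nearly level, whereas Pfkp, the platelet-type subunit, was at 2.46, 3.44, 6.04 and 2.09 times. Pfkp had the larger SD of log2(FPKM+1) among xHomo embryos, 1.0 against 0.64; the Pfkp locus overlaps that of Pitrm1 in the table. Aldoa, the main aldolase, was at 457 ± 55.7 FPKM (SD, n = 3) in the xHet embryos and 985, 1068, 1333 and 886 FPKM in xHomo embryos 7 to 10. Aldoc, its minor relative, was at 1.96, 1.52 and 1.78 FPKM in the xHet embryos and reached 9.80 FPKM in xHomo embryo 9.

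Tpi1, triose phosphate isomerase, was at 543, 619, 589 and 508 FPKM in xHomo embryos 7 to 10 against a xHet mean of 252 ± 35.6 FPKM (SD, n = 3), at a locus that overlaps Spsb2. Gapdh (chr6:125111869-125115601), often used as a reference gene, was the most abundant of the set, at 1776, 1569 and 1562 FPKM in the xHet embryos. The xHomo embryos held 1959, 1682, 2196, 1833, 2287, 2106, 2813, 3057, 3371 and 2517 FPKM of it in order, and 9 of the 10 exceeded every xHet embryo. Gapdh in xHomo embryos 7 to 10 was 1.72, 1.87, 2.06 and 1.54 times the xHet mean. Pgk1, the first ATP-yielding enzyme, reached 2.21, 2.41, 2.88 and 2.01 times in those embryos.

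Pgam1 (chr19:41986360-41993155), phosphoglycerate mutase, was at 301, 290.5 and 358 FPKM in the xHet embryos and 419.9, 332, 323, 323, 396, 342, 611, 633, 579 and 556 FPKM in the xHomo embryos. Eno1 (chr4:149611305-149622982), enolase, was ordered otherwise than the rest of the chain. It was at 135, 112 and 132 FPKM in the xHet embryos, and its xHomo values were 163, 111, 279, 181, 182, 168, 199.6, 204, 165 and 198 FPKM. Eno1 was highest in xHomo embryo 3, the library in which 17 genes of the set were lowest, and 9 of 10 xHomo embryos lay above all xHet embryos, with xHomo embryo 2 below them. Glycolytic enzymes of this kind are known to have many processed pseudogenes, and reads shared with these copies could have been assigned either way, so the exact levels of Gapdh, Eno1, Aldoa, Pgk1, Tpi1, Pgam1 and Ldha are uncertain.

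The next 4 genes set the pace of glycolysis or the fate of pyruvate. Ldha (chr7:54101173-54110997), the lactate dehydrogenase subunit that turns pyruvate to lactate, was at 913, 759 and 952 FPKM in the xHet embryos. The xHomo embryos had 1293, 877, 791, 746, 1009.8, 875, 1670.4, 1762, 1665 and 1524 FPKM. The last 4 were close to each other, at 1.91, 2.01, 1.90 and 1.74 times the xHet mean. Pdk1 (chr2:71711328-71741915), the kinase that inhibits pyruvate dehydrogenase and so the making of acetyl-CoA from pyruvate, was at 15.3, 15.3 and 25.5 FPKM in the xHet embryos and 32.7, 14.4, 9.68, 12.3, 16.2, 15.0, 53.0, 60.6, 67.5 and 45.9 FPKM in the xHomo embryos. Pdk1 in xHomo embryos 7 to 10 was 2.83, 3.24, 3.61 and 2.46 times the xHet mean; xHomo embryo 1 and xHet embryo 3 came next. Pfkfb3, which makes an activator of phosphofructokinase, was at 21.3, 20.2, 25.4 and 21.2 FPKM in xHomo embryos 7 to 10, against a xHet mean of 7.44 ± 2.23 FPKM (SD, n = 3). Pfkfb4, its relative, was at 2.45, 2.53, 2.57 and 2.47 FPKM in the same 4 embryos and 2.50, 2.54 and 2.15 FPKM in the xHet embryos, so that the values overlapped.

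Among oxygen-dependent dioxygenases Egln3 (chr12:55279967-55304861), a prolyl hydroxylase that is itself a known HIF target, was at 2.17, 2.63 and 3.43 FPKM in the xHet embryos. The xHomo values were 5.35, 2.94, 2.04, 2.26, 2.42, 2.87, 11.4, 10.4, 18.8 and 11.2 FPKM, so that xHomo embryos 7 to 10 were at 4.17, 3.79, 6.87 and 4.10 times the xHet mean. Egln1, the main oxygen-sensing hydroxylase, was more abundant and less spread, at 47.9, 57.1, 69.9 and 39.4 FPKM in those embryos against a xHet mean of 18.6 ± 2.78 FPKM (SD, n = 3). The collagen prolyl hydroxylase subunits P4ha1 and P4ha2 were at 2.01, 2.04, 2.84 and 1.84 and at 2.30, 2.56, 3.48 and 1.64 times the xHet mean in xHomo embryos 7 to 10, and both were lowest in xHomo embryo 3, at 0.425 and 0.348 times. Kdm3a, a histone demethylase, was at 1.76, 1.87, 2.38 and 1.73 times. All 5 genes were at least 0.5 log2 units higher in each of xHomo embryos 7 to 10.

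Of the mitochondrial proteins, Bnip3 (chr7:146082518-146101189), a receptor for the removal of mitochondria by autophagy, had the widest spread in the set, with an SD of log2(FPKM+1) of 1.31 among xHomo embryos. It was at 29.2, 28.6 and 59.9 FPKM in the xHet embryos and 86.9, 31.0, 31.7, 25.0, 39.3, 29.98, 185, 206, 239 and 146 FPKM in the xHomo embryos. The folds over the xHet mean were 4.71, 5.24, 6.09 and 3.71 in xHomo embryos 7 to 10 and 2.22 in xHomo embryo 1. xHet embryo 3 stood well above the other 2 xHet embryos, and xHomo embryos 2 to 6 lay near those 2. Bnip3l (chr14:67604076-67627714), its relative, which is also known for clearing mitochondria from maturing red cells, was at 38.2, 40.4 and 43.3 FPKM in the xHet embryos. Its xHomo values of 55.4, 41.7, 42.0, 37.4, 49.1, 46.4, 87.0, 101, 114 and 78.0 FPKM again put xHomo embryos 7 to 10 on top, at 2.14, 2.48, 2.81 and 1.92 times the xHet mean. Higd1a (chr9:121757677-121767118), a mitochondrial inner membrane protein known to respond to hypoxia, was at 22.2, 19.1 and 23.1 FPKM in the xHet and 29.6, 19.8, 27.3, 17.1, 26.7, 24.0, 52.0, 60.5, 56.3 and 43.8 FPKM in the xHomo embryos, and 8 of the 10 exceeded the highest xHet embryo.

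The remaining hypoxia genes included the widest folds. Ndrg1 (chr15:66760879-66801203), a stress-responsive gene, was at 1.8, 1.55 and 3.16 FPKM in the xHet embryos and at 5.76, 1.46, 1.83, 2.12, 2.26, 2.47, 12.4, 12.9, 23.4 and 6.6 FPKM in the xHomo embryos. Its folds in xHomo embryos 7 to 10 were 5.74, 5.94, 10.8 and 3.04 over a xHet mean of 2.17 ± 0.866 FPKM (SD, n = 3). Ankrd37 (chr8:47082261-47085204), an ankyrin repeat gene known as a HIF target, was at 3.29, 3.50 and 6.17 FPKM in the xHet embryos. Its xHomo values were 5.23, 4.52, 3.51, 3.58, 3.37, 4.42, 15.8, 15.3, 29.8 and 12.9 FPKM, and xHomo embryos 1 to 6 all lay below xHet embryo 3. Mxi1 (chr19:53384995-53450300), an antagonist of Myc, was at 4.50, 4.0 and 4.70 FPKM in the xHet embryos and 6.08, 3.65, 4.58, 4.97, 4.95, 5.15, 7.82, 9.77, 13.8 and 7.92 FPKM in the xHomo embryos, with 8 of 10 above the xHet range. Ero1l, the oxidase that forms disulfide bonds in the endoplasmic reticulum, was at 2.05, 2.59, 3.55 and 1.76 times the xHet mean in xHomo embryos 7 to 10 and 0.400 times in xHomo embryo 3.

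Car9 (chr4:43519897-43526597), the cell-surface carbonic anhydrase often used to mark hypoxic tissue, was barely present. It was at 0.510, 0.560 and 0.310 FPKM in the xHet embryos and at 0.340, 0.430, 0.340, 0.340, 0.480, 0.360, 0.430, 1.39, 3.01 and 1.04 FPKM in the xHomo embryos. Car9 thus stood above all other embryos in xHomo embryos 8, 9 and 10, while xHomo embryo 7, high for 30 other genes, was at 0.430 FPKM, within the xHet range. Because its mean was below 1 FPKM it was not tested.

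Lower values were concentrated in xHomo embryo 3, where 13 of the 32 genes were lower by at least 0.5 log2 units and 17 were at their lowest of the 13 embryos. These counts stand beside 32.2% and 52.9% of all genes in that library and are read as no more than its general level. The 13 were Vegfa, Adm, Slc2a1, Slc2a3, Pfkp, Aldoc, Pfkfb3, Pfkfb4, Pdk1, P4ha1, P4ha2, Kdm3a and Ero1l. Some other enzymes of glycolysis were near or above the xHet mean in the same library, with Pgk1 at 0.960 times, Aldoa at 0.956 times, Tpi1 at 0.990 times and Gapdh at 1.34 times. Hk1, Hk2 and Pfkl stood below it there, at 0.681, 0.734 and 0.767 times, though by less than 0.5 log2 units. Elsewhere a lower value by this measure was found for Pdk1 and Bnip3 in xHomo embryo 4 (2 genes, against 2.13% of all genes), P4ha2 in xHomo embryo 6 (1 gene, against 2.65%), Adm in xHet embryo 1 (1 gene, against 1.2%) and Bnip3 in xHet embryo 2 (1 gene, against 1.23%). It was found for 0 of the 32 in xHet embryo 3 and xHomo embryos 1, 2, 5, 7, 8, 9 and 10, against 1.27%, 1.68%, 3.14%, 2.3%, 2.45%, 2.66%, 6.69% and 1.96% of all genes.

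For 9 pairs of relatives with the same role the ratio of their FPKM was taken in each embryo. In 3 of the 9 the values of xHomo embryos 7 to 10 did not overlap those of the other embryos, and in 6 they did. The Hk2 to Hk1 ratio was 1.65, 1.92 and 2.04 in the xHet embryos, 1.78 to 2.28 in xHomo embryos 1 to 6 and 3.68, 2.92, 2.79 and 3.21 in xHomo embryos 7 to 10, without overlap. The Pfkfb4 to Pfkfb3 ratio was 0.396, 0.423 and 0.215 in the xHet embryos, 0.265 to 0.338 in xHomo embryos 1 to 6, and 0.115, 0.125, 0.101 and 0.116 in xHomo embryos 7 to 10. For Bnip3l to Bnip3 the xHet embryos were at 1.31, 1.41 and 0.723, xHomo embryo 1 at 0.637, xHomo embryos 2 to 6 between 1.25 and 1.55, and xHomo embryos 7 to 10 at 0.470, 0.490, 0.477 and 0.535. In xHomo embryos 7 to 10 Hk2 was thus higher relative to Hk1, Pfkfb3 relative to Pfkfb4 and Bnip3 relative to Bnip3l than in any other embryo. The 6 that overlapped were those of the transporters and Pfkp to Pfkl, Aldoc to Aldoa, Egln3 to Egln1, P4ha2 to P4ha1 and Ldhb to Ldha. Among the transporters, Slc2a3 to Slc2a1 was 0.442 ± 0.0095 (SD, n = 3) in the xHet embryos and 0.474, 0.514, 0.582 and 0.465 in xHomo embryos 7 to 10, with xHomo embryo 2, at 0.523, inside that span. These embryos were singled out after their values were seen, so the ratios are descriptions without a test.

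Compared by label, with xHomo against xHet as groups, the question is whether the genotypes differ in mean. No gene of the set passed: by limma on log2(FPKM+1), 0 of 32 had a Benjamini-Hochberg adjusted p under 0.05 in either direction, against 0.0235% of all genes higher and 0.0% lower. At an unadjusted p under 0.05 limma found 2 of 32 higher, Eno1 and Gapdh, and 0 lower, against 7.63% and 1.72% of all genes. An exact permutation test, run on every way of dividing the embryos 3 to 10, found the same 2 at an unadjusted p under 0.05, each with p = 0.0245. The smallest p that these divisions allow is 0.0035. For an adjusted p under 0.05 at that p, 892 of the 12755 genes would have to reach it, where 108 did. The adjusted threshold was thus hard to reach by this test. Eno1 had a log2 change of 0.52 ± 0.19 (SE) at an adjusted p of 0.494 by limma and was higher than every xHet embryo in 9 of 10 xHomo embryos. Gapdh had a log2 change of 0.51 ± 0.20 (SE) at an adjusted p of 0.509 by limma and was likewise above them in 9 of 10. The widest mean differences were less certain, with Ndrg1 at a log2 change of 0.95 ± 0.62 (SE) at an adjusted p of 0.635 by limma and Bnip3 at a log2 change of 0.94 ± 0.70 (SE) at an adjusted p of 0.683 by limma; both exceeded every xHet embryo in 5 of 10 xHomo embryos. The 2 at an unadjusted p under 0.05 became 0 without xHet embryo 2, 1 without xHet embryo 3, 4 without xHomo embryo 2, 6 without xHomo embryo 3 and 4 without xHomo embryo 4. No share of all genes is set beside these counts, so they are not read as a result about the set. Array weights of limma count an embryo less the more its genes differ from the mean of its group. With these weights 23 of 32 passed the adjusted threshold, all higher. Of all genes tested 21.8% passed it, counted over both directions.

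The direction was nevertheless shared. The mean was higher in xHomo embryos for 31 of the 32 genes, against 59.7% of all genes, and by at least 0.5 log2 units for 19, against 2.19%. Pfkfb4 was the 1 gene of 32 with a lower mean, at a log2 change of -0.07 ± 0.15 (SE), where 40.3% of all genes were lower. None of the 32 was lower by 0.5, against 1.51% of all genes. The median log2 change was 0.51 over the set and 0.05 over all genes tested. For 0 of the 32 did the groups fail to overlap, against 1.66% of all genes with every xHomo embryo higher and 0.58% with every one lower; without xHet embryo 1 or xHet embryo 3 this became 1 gene, and without xHomo embryo 2 it became 2. The mean hides the difference between embryos of the xHomo label given above, where the median difference was over 0.5 in xHomo embryos 1, 7, 8, 9 and 10 and ran from -0.33 to 0.11 in the others.

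**Figure D4:**
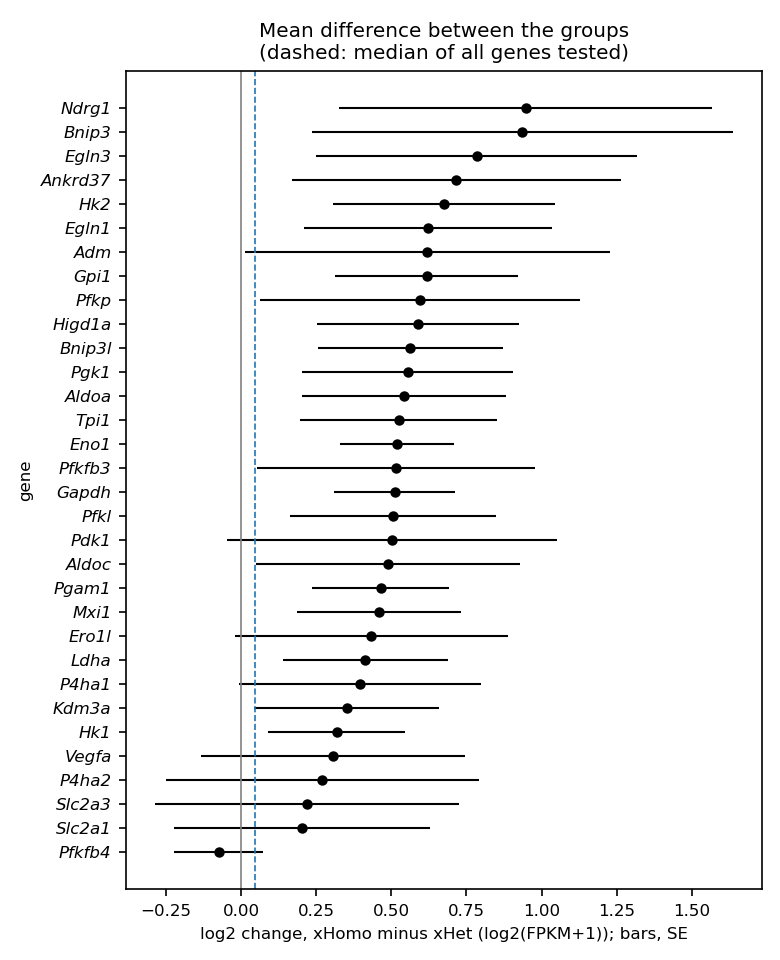
Points give the difference of group means in log2(FPKM+1), xHomo (n = 10) minus xHet (n = 3), for each of the 32 tested genes, with bars for the standard error of the limma fit and a dashed line at the median of all genes tested, 0.05. Every point but Pfkfb4 lies right of 0, and the bars are wide for Bnip3, Ndrg1 and Adm, whose xHomo embryos differed most.

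The spread within the xHomo label was large for this set. The median SD of log2(FPKM+1) among the 10 xHomo embryos was 0.72 over the 32 genes and 0.23 over all genes tested, and among the 3 xHet embryos it was 0.18 and 0.10. An SD of at least 0.5 among xHomo embryos was found for 26 of 32, against 5.28% of all genes. The widest were Bnip3 at 1.31, Ndrg1 at 1.16, Adm at 1.14, Pdk1 at 1.02, Ankrd37 at 1.02 and Egln3 at 1.0. The narrowest 6 were Pfkfb4 at 0.24, Gapdh at 0.33, Eno1 at 0.33, Pgam1 at 0.41, Hk1 at 0.41 and Ldha at 0.49.

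For 5 pairs the values were correlated over the 10 xHomo embryos on log2(FPKM+1), each with a two-sided permutation test and adjustment over the 5. Vegfa and Slc2a1 had r = 0.961 (permutation p = 1e-05, adjusted 1.67e-05) and rho = 0.976 (p = 7e-05, adjusted 0.000175). Pdk1 and Ldha had r = 0.986 (permutation p = 2e-05, adjusted 2.5e-05) and rho = 0.939 (p = 0.00018, adjusted 0.000225). For Egln3 and Ankrd37 r was 0.981 (permutation p = 1e-05, adjusted 1.67e-05) and rho 0.952 (p = 0.00012, adjusted 0.0002). For Pgk1 and Aldoa r was 0.997 and rho 1.0 (permutation p = 1e-05 for both, adjusted 1.67e-05 and 5e-05); 1e-05 is the smallest p that 100000 permutations can give. Without the 2 embryos farthest from the median of the first gene r was 0.978, 0.983, 0.969 and 0.996 in that order. The pairs share their libraries and their scaling, and xHomo embryos 7 to 10 with embryo 1 stood above the other 5 in all 8 of these genes. The part of that division of the embryos in the high r of these 4 pairs was not tested. The genes were chosen with earlier results of these data known, and gene pairs outside the 5 were not correlated for comparison. Among xHomo embryos 1 to 6 alone, none of these 4 pairs had values even enough for a coefficient, since the largest gap exceeded 0.5 of the range.

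Bnip3l was set against red cell content because it is known for its role in maturing red cells. Over the 10 xHomo embryos Bnip3l and the mean log2(FPKM+1) of the red cell genes had r = 0.444 (permutation p = 0.196, adjusted 0.196) and rho = 0.455 (p = 0.189, adjusted 0.189), and r was 0.546 without the 2 embryos farthest from the median of Bnip3l. In xHomo embryos 1 to 6 alone r was 0.734 (permutation p = 0.107), and over all 10 with rescaling to TPM it was 0.229. None of these had a p under 0.05, at a number of embryos that leaves r uncertain. The median difference of 15 red cell genes from the xHet mean was 0.26, -0.12, -0.03 and -0.12 in xHomo embryos 7 to 10, and 0.36 in xHomo embryo 1.

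Other genes of the machinery that senses oxygen were taken from a list of 16 HIF subunits and regulators. The list leaves out Egln1 and Egln3, which belong to the set and were higher in xHomo embryos 7 to 10. Its median difference from the xHet mean ran from -0.19 in xHomo embryo 3 to 0.22 in xHomo embryo 6. By limma 14 of the 16 had a higher and 2 a lower xHomo mean, against 59.7% and 40.3% of all genes. The median log2 change was 0.09, against 0.05 over all genes, and 0 passed the adjusted threshold. At an unadjusted p under 0.05 by limma 3 were higher, against 7.63% of all genes, namely Tceb2, Cited2 and Vhl, and 0 were lower, against 1.72%. Tceb2, elongin B of the Vhl complex, was at 249, 214 and 211 FPKM in the xHet embryos and from 231.6 to 341.6 FPKM in the xHomo embryos, and Cited2, an inhibitor of HIF transactivation, was at 32.5, 33.5 and 31.0 and from 33.5 to 48.9 FPKM. Hif1a, the alpha subunit itself, named here after its values were seen, was at 24.2, 27.8 and 23.6 FPKM in the xHet embryos and 23.9, 28.3, 25.0, 29.5, 36.3, 36.6, 22.1, 25.7, 23.3 and 27.7 FPKM in the xHomo embryos, so that xHomo embryos 7 and 9 were the lowest of the 13 and xHomo embryos 5 and 6 the highest. For 0 of the 16 were xHomo embryos 7 to 10 the 4 highest, against 6.35% of all genes.

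Other genes known to respond to hypoxia, 29 tested of a list of 32, had 21 higher and 8 lower means in xHomo embryos, against 59.7% and 40.3% of all genes. Their median log2 change was 0.22, and 0 passed the adjusted threshold. At an unadjusted p under 0.05 by limma 1 was higher, against 7.63% of all genes, and 0 were lower, against 1.72%. The 1 was Gbe1, a glycogen branching enzyme. In xHomo embryos 7 to 10, 14, 15, 18 and 15 of the 29 were at least 0.5 log2 units above the xHet mean, against 6.69%, 9.32%, 15.2% and 4.27% of all genes. For 15 of the 29 these were the 4 highest embryos, against 6.35% of all genes. Gys1, muscle glycogen synthase, was at 11.9, 10.7 and 13.7 FPKM in the xHet embryos and 23.7, 27.4, 37.7 and 21.8 FPKM in xHomo embryos 7 to 10. Tfrc, the transferrin receptor that imports iron, was not higher there, at 97.7, 91.3, 69.7 and 90.2 FPKM against 106, 112 and 118 FPKM. Ddit4, an inhibitor of mTOR signalling chosen here after its values were seen, was at 12.2, 10.5 and 21.7 FPKM in the xHet embryos and 31.9, 9.66, 16.4, 13.7, 19.5, 13.3, 109, 95.4, 177 and 101 FPKM in the xHomo embryos, with xHomo embryos 7 to 10 highest and xHomo embryo 1 next.

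Further enzymes of glucose and pyruvate metabolism, 20 tested of 28 listed, had 16 higher and 4 lower means, against 59.7% and 40.3% of all genes. Their median log2 change was 0.18, and 0 passed the adjusted threshold. At an unadjusted p under 0.05 by limma 5 were higher, against 7.63% of all genes, and 0 were lower, against 1.72%. Pkm2, the row for the muscle-type pyruvate kinase gene that ends glycolysis, was at 807, 709.6 and 832 FPKM in the xHet embryos and 1147, 838, 849, 989, 1117, 965, 1507, 1571, 1650.0 and 1392 FPKM in the xHomo embryos, highest in xHomo embryos 7 to 10. Pdk2, a relative of Pdk1, was at 3.02, 2.76, 3.30 and 2.77 FPKM in those embryos against 1.58, 1.62 and 1.40 FPKM in the xHet embryos. Pdha1, the subunit of pyruvate dehydrogenase that these kinases act on, was highest in xHomo embryos 5, 8 and 9, at 61.9, 61.2 and 61.9 FPKM. For 6 of the 20 were xHomo embryos 7 to 10 the 4 highest, against 6.35% of all genes.

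**Figure D5:**
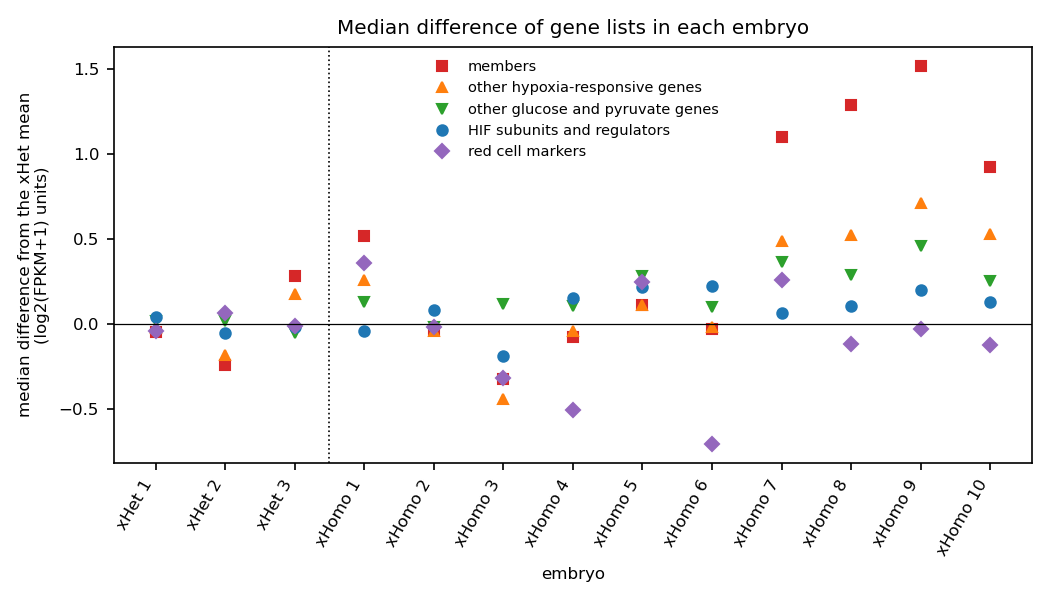
Points give the median difference of log2(FPKM+1) from the xHet mean in each embryo for the 32 tested genes of the set (red squares), 29 other hypoxia-responsive genes (orange triangles), 20 other genes of glucose and pyruvate metabolism (green triangles), 16 HIF subunits and regulators (blue circles) and 15 red cell genes (purple diamonds). The red squares of xHomo embryos 7 to 10 lie at 0.92 to 1.52, and the blue circles of all embryos lie between -0.19 and 0.22.

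Other measures were read beside the pattern in xHomo embryos 7 to 10. The median difference of 9 heart muscle genes was 0.37, 0.46, 0.51 and 0.54 in them and at most 0.21 in the other embryos, with a summed level of 832, 878, 1033 and 923 FPKM against 562 to 771 FPKM elsewhere. The median for 13 replication-dependent histone genes was 0.62, 0.57, 0.74 and 0.36 there, but 1.25 in xHomo embryo 1. That for 8 immediate early genes was 0.28, 0.33, 0.48 and 0.35, with xHomo embryos 1, 2, 4, 5 and 6 between 0.25 and 0.34. Summed trophoblast markers were 26.8, 17.2, 21.8 and 26.7 FPKM in xHomo embryos 7 to 10 and 16.7 to 26.3 FPKM elsewhere, summed decidua markers 34.9, 32.96, 35.3 and 36.9 FPKM against 24.0 to 35.7 FPKM, and summed yolk sac endoderm markers 65.7, 70.4, 82.6 and 80.0 FPKM against 25.5 to 112 FPKM. The part of these in the levels of the hypoxia and glycolysis genes was not tested.

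Xist, which coats an inactive X chromosome, was at 112, 30.5, 122, 159 and 137 FPKM in xHomo embryos 2, 3, 7, 9 and 10 and at 0.05 to 0.10 FPKM in the other 8. All 3 xHet embryos were among those 8, so the xHet mean came from embryos without Xist. The Y-linked genes Ddx3y, Eif2s3y, Kdm5d and Uty were all 4 lower by at least 0.5 log2 units in each of the 5 embryos with Xist. In the other 8 embryos 0 of them were. By these genes the 5 read as female and the other 8, with all 3 xHet embryos, as male. xHomo embryo 8 was high for the set at 0.07 FPKM of Xist, and xHomo embryos 2 and 3 had Xist without being high. The relation between Xist, or sex, and the set was not tested beyond the covariate fit given in the closing section. Peg10, an imprinted gene expressed from the paternal copy, was at 0.03, 0.01, 0.05, 0.01 and 4.19 FPKM in xHomo embryos 1, 7, 8, 9 and 10, the 5 embryos with the most genes of the set above the xHet mean among the xHomo embryos. Peg10 was between 57.8 and 126.9 FPKM in the other 8, and the relation between Peg10 and the set was not tested.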

How the data were processed

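Per the labels' protocols, RNA was purified with DNase treatment on RNeasy columns and made into directional libraries from poly(A) RNA. The authors deposited FPKM values per gene and embryo, with loci on mm9; the submitters' processing notes name TopHat, Cufflinks and bcl2fastq 1.8.2, while other versions, annotation and use of strand are not given. FPKM holds no counts, so depth and counting error are unknown, and abundant RNAs can shift all other values. Groups follow the genotype label. The 12755 of 23217 genes averaging 1 FPKM or more were tested with limma 3.58.1 in R 4.3.3 (eBayes with trend, two-sided) on log2(FPKM+1), a scale that understates changes of low genes, with Benjamini-Hochberg adjustment over all of them at 0.05. The fit was tested on simulated data. Every gene of the set is named; values in every embryo are given for the 8 smallest p values, the 6 largest SDs among xHomo embryos and Vegfa, Slc2a1, Pdk1, Ldha, Egln3 and Car9, and up to 4 genes of smallest p for other lists. The genes and lists were chosen with earlier results of these data known. Alternatives are in the closing section. Python 3.11.15, numpy 2.4.6, pandas 2.3.3, scipy 1.17.1 and matplotlib 3.10.9 were used.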

Additional observations from a re-analysis of the deposited data

Results flagged for a closer look

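Among the 10 xHomo embryos 2 genes of the set had a value whose gap to its neighbour, over the range of the group on the log2(FPKM+1) scale, exceeded Dixon's critical value of 0.466. Slc2a1 was lowest in xHomo embryo 3, at 90.37 FPKM (gap over range 0.493), the library that was also lowest for 52.9% of all genes tested. Car9 was highest in xHomo embryo 9, at 3.01 FPKM (gap over range 0.472). The same measure picked out 22.8% of all genes tested, and chance alone picks out about 1 group in 20.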

How the results depend on the processing

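The count of genes past the adjusted threshold was 0 of 32 in limma and stayed 0 with a pseudocount of 0.1 or 5, no filter or a minimum of 5 FPKM, 4 rescalings, Xist as a covariate and each embryo left out; with array weights it was 23. It was also 0 by the exact permutation test, for which that threshold was hard to reach and which says nothing of stability. The count at an unadjusted p under 0.05, 2, became 1 with TPM, with small RNA genes removed before rescaling, with median-of-ratios scaling, with quantile normalization and with Xist as a covariate, 31 with array weights, and 0 to 6 with an embryo left out. Shares of all genes at that p are not given for these settings, so the counts are not read as a result about the set. Removing small RNA genes moved the median of all genes from 0.05 to -0.12, and the median of the set relative to it stayed at 0.46. The median of the set ran from 0.41 to 0.62 with an embryo left out, and the count of genes without overlap from 0 to 2. The mean count of departures per xHomo embryo, 15.9, became 9.4 at 1 log2 unit and 14.2 to 17.7 with an embryo left out. The count of genes whose 4 highest embryos were xHomo 7 to 10, added after seeing the data, was 28 to 30 under the pseudocounts, filters and rescalings; the share of all genes with that pattern, 6.35%, was 1.91% to 3.21% under the rescalings and 4.42% without a filter.

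Direction turned in 25 of 798 changes recomputed. Slc2a3 was -0.0908 and P4ha2 -0.00773 with Xist as a covariate, and Pfkfb4 0.0066 with array weights. Replicate numbers 1 to 3 occur in both groups, but same-numbered embryos did not deviate together (r of -0.048, -0.052 and -0.060), so the numbers do not pair them. In embryos 1 to 3 of each group, 0 genes had an unadjusted p under 0.05 with the replicate block and 0 without it, the median was 0.08, and the changes were the same in both fits: Vegfa -0.19, Slc2a1 -0.41, Slc2a3 -0.35, Pdk1 -0.11, Adm -0.21, P4ha1 -0.24, P4ha2 -0.32, Hk1 -0.0898, Pfkfb3 -0.20, Ero1l -0.29 and Kdm3a -0.17. That subset leaves out xHomo embryos 4 to 10; other causes of these changes were not tested.

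With an embryo left out r ran from 0.958 to 0.969 for Vegfa and Slc2a1, 0.983 to 0.990 for Pdk1 and Ldha, 0.979 to 0.984 for Egln3 and Ankrd37, 0.997 to 0.998 for Pgk1 and Aldoa and 0.290 to 0.546 for Bnip3l and red cell genes, whose r of 0.444 was 0.229 to 0.410 under the rescalings. No r was computed, for gaps in the values, without xHomo embryo 6 or 9 for the first pair, 1 for the second and 1 or 9 for the third, nor without small RNA genes for the first and second.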
